A study of Mus musculus with 6 samples.

Results

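The 47 genes described here encode the machinery that copies DNA in S phase and the regulators that open the way into it. They were taken as a list of named origin, helicase, polymerase, nucleotide supply and G1/S genes. The rule used no measured value, although the list was drawn up with earlier results of these data known. They make up 47 of the 53465 genes in the deposited table. All 47 had enough counts to be tested, among 13550 tested genes. They were compared between parental (P) 4T1 cells, a mouse mammary carcinoma line, and axitinib-resistant (AxR) 4T1 cells, with 3 RNA sequencing libraries per line. Axitinib is a tyrosine kinase inhibitor that mainly blocks VEGF receptors. AxR cells were grown out of a metastatic lesion that arose after surgery in Balb/c mice given axitinib at 100 mg/kg/day, and were then kept in 0.5 μM axitinib for over 2 months. P cells carry no treatment label and were vehicle-treated by the study's account, although the label on growth conditions names 0.5 μM axitinib for all 6 libraries. AxR is a single derived line, so drug, passage through the animal, and choice of a lesion cannot be told apart. Nothing states that the 3 libraries of a line came from separate cultures, and p-values then measure only the spread between these libraries.

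Replication begins in G1, when the origin recognition complex, CDC6 and CDT1 load the MCM2-7 helicase onto DNA, a step called licensing. D-type cyclins with CDK4 or CDK6, and then cyclin E with CDK2, release E2F transcription factors from the retinoblastoma protein, and E2F drives many of the genes below. In S phase the kinase CDC7 with its partner DBF4 helps to turn the loaded MCM ring into an active helicase with CDC45 and the GINS complex, and polymerases held by the PCNA clamp copy both strands. These genes are widely read as markers of dividing tumor cells.

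To see what the start regions of these genes share, the RefSeq promoter windows of GRCm38.p6 were searched, each holding 250 bases before and 50 bases after a transcription start. A window was found for 37 of the 47 genes. The E2F motif was searched as the 4 words TTTCCCGC, TTTCGCGC, TTTGCCGC, and TTTGGCGC on both strands. At least 1 of these words lay in 14 of the 37 windows (37.8%), in 4.35% of the windows of all tested genes and in 2.64% of all windows. The words stood in 7 of 17 windows of genes higher in AxR cells, 2 of 3 of genes lower in AxR cells, and 5 of 17 of genes that did not pass the test. CCAAT, on both strands, was in 54.1% of the members' windows and 39.4% of those of tested genes, and the GC box GGGCGG in 73.0% and 66.4%. A match is a match of letters and not a measured binding site. The 6 windows below belong to the 4 members with the highest log2 fold changes and to E2f3 and Cdt1, which were lower in AxR cells, so that windows of raised and lowered genes can be set side by side. E2F words are in capitals, and a RefSeq start can differ from that of the gene annotation used for coordinates, by 108 bases for Lig1.
Orc1, higher in AxR, chr4:108579204-108579503, plus strand: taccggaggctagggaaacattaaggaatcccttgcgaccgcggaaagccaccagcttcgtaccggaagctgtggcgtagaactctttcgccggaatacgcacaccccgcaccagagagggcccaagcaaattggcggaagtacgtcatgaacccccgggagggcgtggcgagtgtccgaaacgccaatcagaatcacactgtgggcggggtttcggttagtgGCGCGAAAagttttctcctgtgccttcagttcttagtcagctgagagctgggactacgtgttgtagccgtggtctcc
Mcm6, higher in AxR, chr1:128359656-128359955, minus strand: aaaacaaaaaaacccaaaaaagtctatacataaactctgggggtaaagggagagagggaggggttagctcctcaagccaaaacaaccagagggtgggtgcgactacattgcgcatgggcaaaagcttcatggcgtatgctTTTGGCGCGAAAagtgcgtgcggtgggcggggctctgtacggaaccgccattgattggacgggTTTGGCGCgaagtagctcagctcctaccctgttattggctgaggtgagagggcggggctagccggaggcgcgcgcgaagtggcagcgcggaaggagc
Mcm2, higher in AxR, chr6:88898731-88899030, minus strand: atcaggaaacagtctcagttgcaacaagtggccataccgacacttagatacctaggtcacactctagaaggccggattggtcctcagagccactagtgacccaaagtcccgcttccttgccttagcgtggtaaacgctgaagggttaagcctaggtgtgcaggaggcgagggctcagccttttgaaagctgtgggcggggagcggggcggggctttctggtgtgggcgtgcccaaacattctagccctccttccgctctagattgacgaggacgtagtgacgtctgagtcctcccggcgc
Lig1, higher in AxR, chr7:13276925-13277224, plus strand: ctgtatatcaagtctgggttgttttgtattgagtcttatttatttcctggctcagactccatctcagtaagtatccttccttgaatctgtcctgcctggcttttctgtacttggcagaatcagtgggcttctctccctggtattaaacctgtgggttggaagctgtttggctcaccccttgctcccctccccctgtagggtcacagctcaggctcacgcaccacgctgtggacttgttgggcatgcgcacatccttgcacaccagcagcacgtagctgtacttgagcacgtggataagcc
E2f3, lower in AxR, chr13:29986014-29986313, minus strand: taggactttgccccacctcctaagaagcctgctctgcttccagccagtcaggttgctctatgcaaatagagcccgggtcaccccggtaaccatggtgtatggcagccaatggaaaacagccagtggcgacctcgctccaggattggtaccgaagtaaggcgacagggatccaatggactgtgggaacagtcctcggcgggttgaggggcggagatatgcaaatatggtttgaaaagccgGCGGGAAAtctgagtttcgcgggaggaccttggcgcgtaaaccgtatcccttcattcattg
Cdt1, lower in AxR, chr8:122567765-122568064, plus strand: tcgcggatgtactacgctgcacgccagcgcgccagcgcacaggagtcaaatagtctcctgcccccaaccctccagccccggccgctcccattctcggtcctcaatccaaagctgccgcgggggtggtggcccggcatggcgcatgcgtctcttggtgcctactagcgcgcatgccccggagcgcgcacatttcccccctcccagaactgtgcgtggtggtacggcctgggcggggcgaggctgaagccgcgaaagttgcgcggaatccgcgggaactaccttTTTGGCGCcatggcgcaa
The Mcm6 window held 3 E2F words, 2 of which overlap, while the windows of Mcm2 and Lig1, both raised in AxR cells, held none of the 4 words. The windows of E2f3 and Cdt1, both lowered, held 1 word each, and that of Cdk6, the other lowered gene with a window, held none and is not shown. The RefSeq start of the Cdk6 window is 2408 bases from the start in the gene annotation, so the window does not cover the latter. The count for lowered genes carries this limit.

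Across the 47 genes, the replication machinery rose modestly in part. The G1/S regulators went both ways, with Ccnd1, Ccnd2, Cdk6, and E2f3 lower and Ccnd3, Cdk4, and E2f2 higher in AxR cells. In edgeR's quasi-likelihood test, adjusted over all tested genes with a threshold of 0.05, 25 of the 47 passed, or 53.2%, where 63.5% of all tested genes did. Of these, 20 were higher in AxR cells (42.6%, against 32.8% of all tested genes) and 5 were lower (10.6%, against 30.8%). The share of members that passed was thus below that of all tested genes, since the lines differed in 8608 of the 13550 tested genes. The median log2 fold change of AxR over P was 0.11 for the 47 genes and 0.0058 for all tested genes. The changes were small, from -0.79 in E2f3 to 0.97 in Lig1 on the log2 scale. Of the 47 members, 10 passed and moved by 0.5 or more on the log2 scale in either direction. Of the 13550 tested genes, 4433 did so (32.7%), a larger share. For 27 members the libraries of the lines were fully separated, 20 with AxR above and 7 with AxR below, where 68.3% of all tested genes were separated, 35.1% above and 33.2% below. For each separated gene the exact permutation test, two-sided, gave p = 0.1, below which 3 against 3 cannot go. Since these are bulk libraries, a larger share of cells in S phase and more transcript per cell cannot be told apart.

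**Figure D1:**
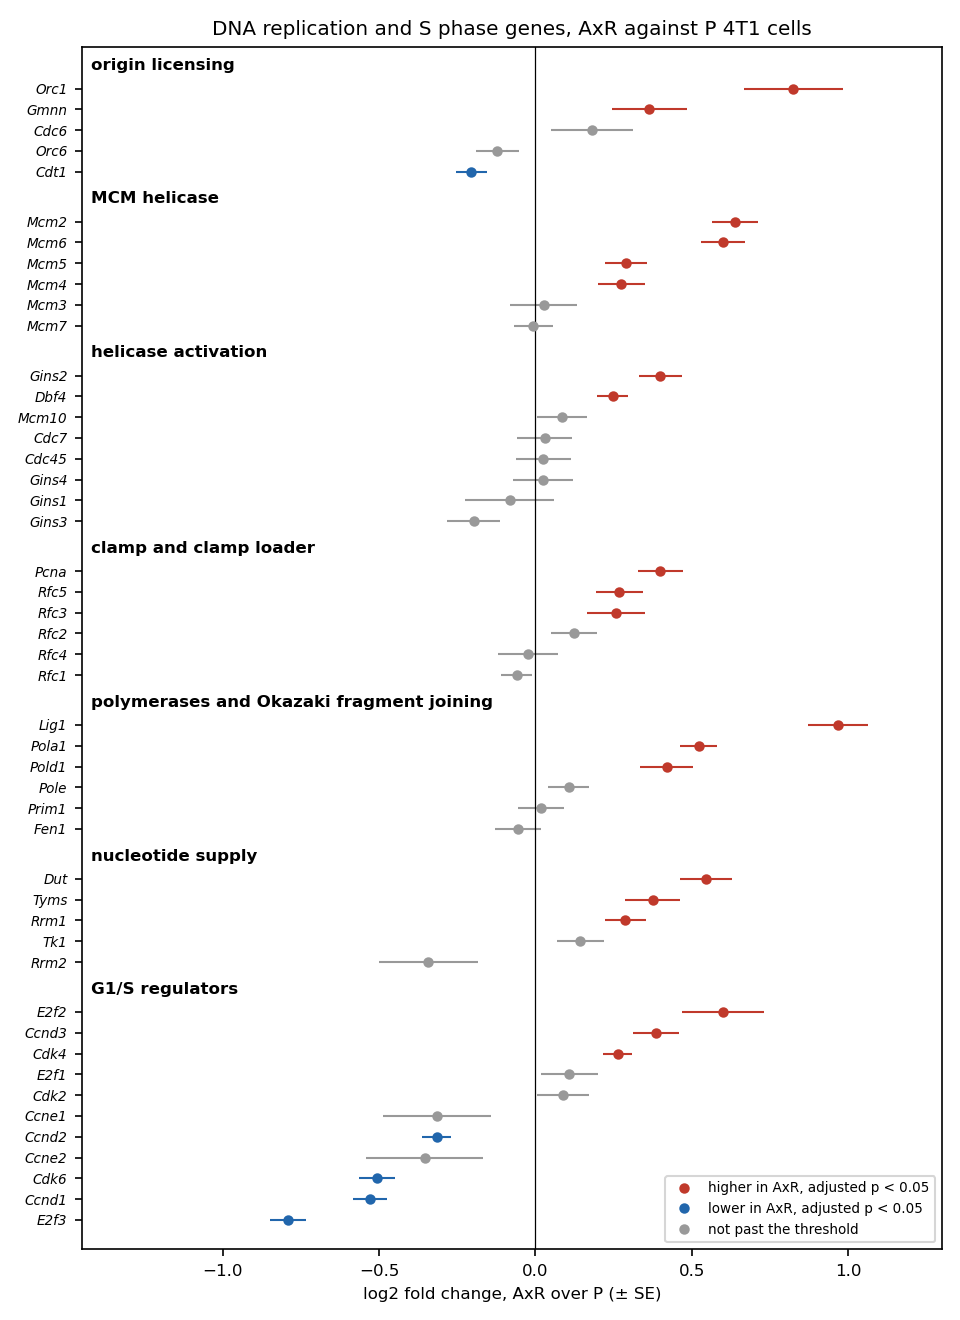
Log2 fold change of AxR over P cells for each of the 47 genes (horizontal axis), grouped by role, with 3 libraries per line. Error bars are standard errors back-computed from edgeR's F statistic. Red points passed as higher and blue points as lower in AxR cells, and grey points did not pass the threshold of 0.05; 4 of the 5 blue points are G1/S regulators.

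The 6 libraries held from 15495260 to 17294525 estimated counts, and no library was left out. Levels are given as CPM, counts scaled to a common library size after upper-quartile normalization. The mammary epithelial markers Epcam, Cdh1, Krt8, and Krt18 were present in all libraries and were higher in AxR cells, with log2 fold changes from 0.36 to 0.78. Krt14, a basal keratin, was at 1.09 ± 0.387 CPM in P and 5.95 ± 1.84 CPM in AxR cells (SD, n = 3), a log2 fold change of 2.45 (adjusted p = 3.59e-06 by edgeR), and Krt5 was at 0 counts. Of 21 markers of leukocytes, fibroblasts, endothelium and lung epithelium, Cd68 was the only one tested, at 3.39 ± 0.291 CPM in P and 8.02 ± 0.111 CPM in AxR cells (SD, n = 3). Tyrobp, Cd3e, Fcer1g, Col3a1, Lum, Kdr, and Scgb1a1 were at 0 in all 6 libraries. The summed level of the leukocyte list was between 3.46 and 3.78 CPM in P and between 8.16 and 8.38 CPM in AxR libraries, and no other of these lists passed 0.851 CPM in any library.

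Origin licensing genes were mixed. Of the 5, Orc1 and Gmnn rose, Cdt1 fell, and Orc6 and Cdc6 did not pass the test. Orc1, the largest subunit of the origin recognition complex (chromosome 4 of GRCm38, 108579423 to 108614833, plus strand), was at 6.44, 6.01, and 5.93 CPM in P replicates 1 to 3 and at 13.8, 10.3, and 8.59 CPM in AxR replicates 1 to 3. Every AxR library was above every P library, with AxR replicate 1 highest. The log2 fold change of Orc1 was 0.82 (standard error, SE, 0.158, adjusted p = 0.000354 by edgeR). Cdt1, which brings the MCM ring to the origin complex (chromosome 8, 122568015 to 122573554, plus strand), was at 108, 107, and 103 CPM in P and 92.4, 90.0, and 93.2 CPM in AxR libraries. All 3 AxR libraries lay below all 3 P libraries and close to each other. Cdt1 had a log2 fold change of -0.20 (SE 0.0508, adjusted p = 0.00247 by edgeR). Gmnn encodes geminin, the inhibitor of CDT1, and had a log2 fold change of 0.36 (adjusted p = 0.0161 by edgeR), rising from 13.2 ± 1.20 to 17.1 ± 3.04 CPM (SD, n = 3 each). Its change rested in part on AxR replicate 1, at 20.6 CPM against 15.3 CPM in both other AxR libraries. Without that library the log2 fold change was 0.21 (adjusted p = 0.0889 by edgeR), and without P replicate 1 it was 0.29 (adjusted p = 0.0735 by edgeR), with adjusted p from 0.000989 to 0.0889 over all alternatives. Cdc6, which helps to load the ring, had a log2 fold change of 0.18 with AxR libraries from 10.1 to 15.2 CPM that overlapped the P libraries, from 10.7 to 12.1 CPM. It was at 0.038 without AxR replicate 1, and at 0.33 without AxR replicate 3, where it passed (adjusted p = 0.0165 by edgeR). Orc6, the smallest subunit of the origin complex, had -0.12, and 6.93% of its exon bases lie opposite Vps35.

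The 6 subunits of the MCM2-7 ring did not move together. Mcm2, Mcm6, Mcm5, and Mcm4 rose, and Mcm3 and Mcm7 did not pass the test in the main fit nor in any alternative. Those that rose are 66.7% of the 6, against 32.8% of all tested genes. Mcm2 (chromosome 6, 88883474 to 88898780, minus strand) was at 67.3, 65.9, and 63.8 CPM in P and 116, 99.1, and 92.3 CPM in AxR libraries. The lowest AxR library was well above the highest P library, and AxR replicate 1 was highest. Mcm2 had a log2 fold change of 0.64 (SE 0.0735, adjusted p = 2.84e-06 by edgeR). Mcm6 (chromosome 1, 128331590 to 128359664, minus strand) was at 108, 124, and 109 CPM in P and 188, 171, and 158 CPM in AxR libraries. These did not overlap either, and the log2 fold change was 0.60 (SE 0.0696, adjusted p = 3.13e-06 by edgeR). Mcm5 and Mcm4 had log2 fold changes of 0.29 and 0.27 (adjusted p = 0.00179 and 0.00532 by edgeR). Without AxR replicate 1 the value of Mcm4 was 0.18. Mcm7 (chromosome 5, 138164583 to 138172422, minus strand) was at 129, 118, and 117 CPM in P and 131, 117, and 115 CPM in AxR libraries. The lines overlapped fully, and replicate 1 was highest in each (log2 fold change -0.0066, SE 0.0616, adjusted p = 0.933 by edgeR). Mcm3 had a log2 fold change of 0.027, with 112 CPM in AxR replicate 1 and 81.1 CPM in AxR replicate 3 on either side of the P libraries, from 87.5 to 98.3 CPM. Levels per kilobase of exon divide by all annotated exon bases of a gene, so comparisons between genes depend on the annotation. On that scale the 6 subunits summed to 141 ± 4.60 CPM per kb in P and 171 ± 17.7 CPM per kb in AxR cells (SD, n = 3). Mcm2 had the most exon bases of the 6 (6956) and was lowest on that scale in both lines. In mean CPM it was above Mcm3 in AxR cells, at 102 against 94.7. Mcm2 gave 6.71 ± 0.274% of the sum per kilobase in P and 8.61 ± 0.118% in AxR cells. Mcm6 went from 17.3 ± 0.790% to 21.6 ± 0.498% and Mcm7 from 19.5 ± 1.49% to 16.03 ± 0.594% (SD, n = 3 each), and the libraries of the lines did not overlap for any of these 3 shares.

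Of the 8 genes that turn the loaded ring into a working helicase, 2 rose and 6 did not pass. The share that rose, 25.0%, was below the 32.8% of all tested genes. Gins2, a subunit of the GINS complex (chromosome 8, 120578633 to 120589304, minus strand), was at 30.8, 32.4, and 32.3 CPM in P and 39.1, 43.6, and 43.1 CPM in AxR libraries. All AxR libraries were above all P libraries, and AxR replicate 1 was here the lowest of its line. Gins2 had a log2 fold change of 0.40 (SE 0.0686, adjusted p = 0.000117 by edgeR). Its exons overlap those of Gse1 on the opposite strand over 67.3% of their bases, so its reads and those of Gse1 cannot be fully told apart unless strand was used in counting. Gins3, another subunit of the complex (chromosome 8, 95633453 to 95645060, plus strand), was at 18.3, 17.8, and 18.1 CPM in P and 17.1, 15.2, and 14.9 CPM in AxR libraries. The AxR libraries lay below the P libraries, but the log2 fold change of -0.20 did not pass (SE 0.0846, adjusted p = 0.0527 by edgeR). It passed with TMM normalization, with library size only and without AxR replicate 1. Gins1 and Gins4 had log2 fold changes of -0.083 and 0.025. Dbf4, the activating partner of the kinase CDC7, rose by 0.25 on the log2 scale (adjusted p = 0.000521 by edgeR), from 156 ± 3.70 to 185 ± 7.58 CPM (SD, n = 3 each), while Cdc7 itself had a log2 fold change of 0.029. Cdc45, the helicase cofactor, and Mcm10, which acts at helicase start, had 0.025 and 0.084, and their libraries overlapped.

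**Figure D2:**
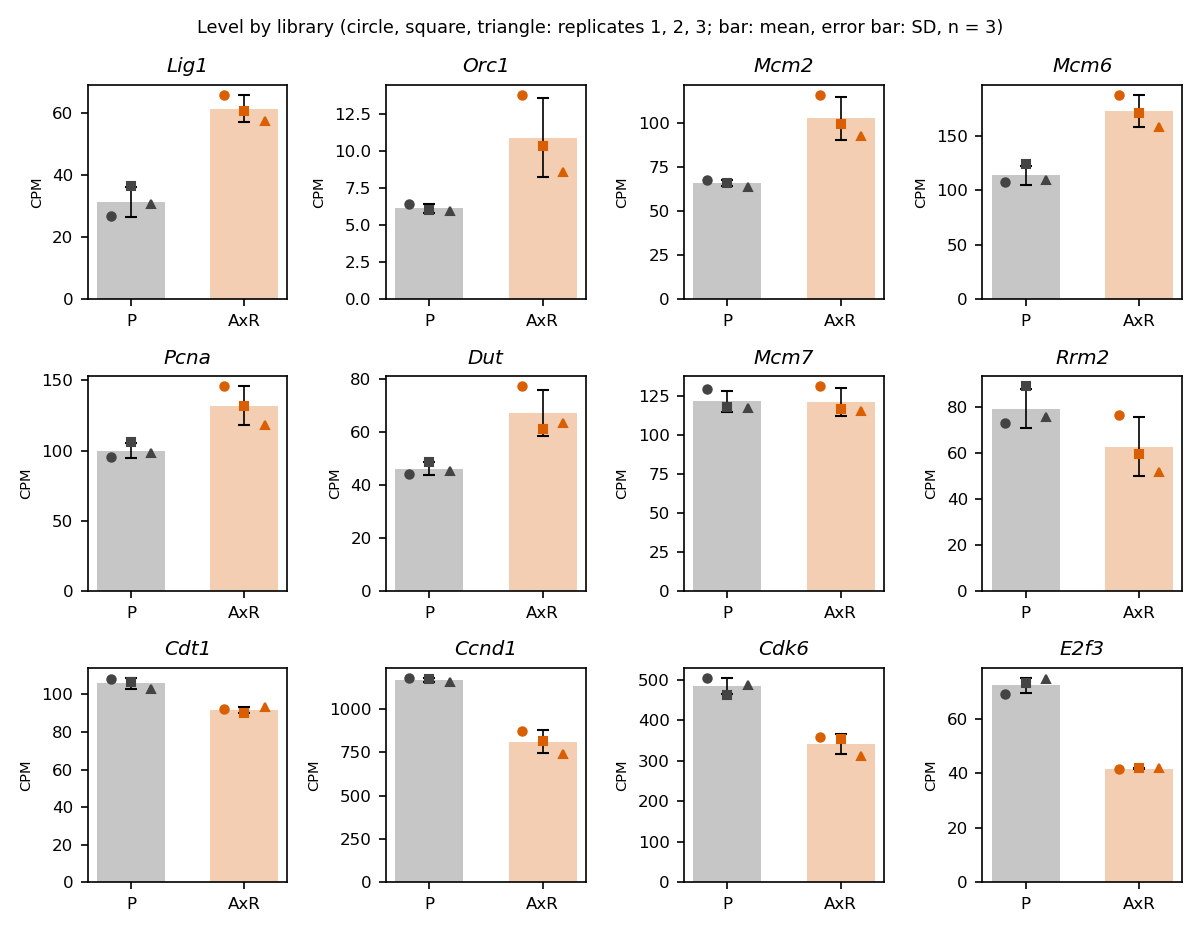
CPM (vertical axes, each from 0) of 12 of the genes in P and AxR cells, with each library as a point, the mean as a bar and the SD as an error bar (n = 3). The 6 raised genes of the first panels have AxR replicate 1 (circle) highest, Mcm7 and Rrm2 overlap between the lines, and Cdt1, Ccnd1, Cdk6, and E2f3 lie lower in AxR cells.

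The sliding clamp and its loader were raised in part. Pcna, the clamp that holds polymerases on DNA (chromosome 2, 132249162 to 132253314, minus strand), was at 95.7, 106, and 97.9 CPM in P and 146, 132, and 118 CPM in AxR libraries. No AxR library reached down to the P libraries, and AxR replicate 1 was highest. The log2 fold change of Pcna was 0.40 (SE 0.0714, adjusted p = 0.000201 by edgeR). Its near copy Pcna-ps2 took 3041 estimated counts over the 6 libraries against 11353 for Pcna, and had a log2 fold change of 0.42, so reads may be split between them. Of the 5 loader subunits, Rfc5 and Rfc3 had log2 fold changes of 0.27 and 0.26 (adjusted p = 0.00581 and 0.0245 by edgeR). Rfc3 did not pass with DESeq2 (adjusted p = 0.0708) nor by edgeR without AxR replicate 1, where its value was 0.15 (adjusted p = 0.128), without P replicate 1 (adjusted p = 0.0713) or without P replicate 3 (adjusted p = 0.0568), and its adjusted p over all alternatives went from 0.00657 to 0.128. Rfc1, the large subunit (chromosome 5, 65261850 to 65335670, minus strand), was at 178, 179, and 174 CPM in P and 177, 166, and 168 CPM in AxR libraries, which overlapped. Its log2 fold change was -0.06 (SE 0.0487, adjusted p = 0.293 by edgeR), and Rfc2 and Rfc4 had 0.12 and -0.02. Without P replicate 2, Rfc2 was at 0.19 and passed (adjusted p = 0.0451 by edgeR). Of exon bases, 10.7% of Rfc5 lie opposite Wsb2, 12.65% of Rfc4 opposite Eif4a2, and 15.1% of Rfc2 opposite Lat2. Wsb2 and Eif4a2 held more estimated counts than the loader genes they face, and Lat2 held fewer.

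Among polymerases and the enzymes that join Okazaki fragments, Lig1, Pola1, and Pold1 rose. Lig1, the ligase that seals nicks between Okazaki fragments (chromosome 7, 13277283 to 13311433, plus strand), was at 26.9, 36.4, and 30.7 CPM in P and 65.9, 60.8, and 57.3 CPM in AxR libraries. The lines were far apart relative to their spread. Its log2 fold change of 0.97 (SE 0.0953, adjusted p = 1.15e-06 by edgeR) was the largest among the 47 genes, corresponding to a 1.96-fold level. Pola1, the catalytic subunit of the polymerase that starts new strands (chromosome X, 93304767 to 93632155, minus strand), was at 128, 140, and 131 CPM in P and 203, 193, and 178 CPM in AxR libraries. These did not overlap, and the log2 fold change was 0.52 (SE 0.0587, adjusted p = 1.67e-06 by edgeR), on a chromosome whose tested genes had a median of 0.24. Pold1, the catalytic subunit of the lagging-strand polymerase, had a log2 fold change of 0.42 (adjusted p = 0.000454 by edgeR). Pole, that of the leading strand, had 0.11, and Prim1, the primase subunit that lays down RNA primers, had 0.018, neither of which passed. Without AxR replicate 3, Pole was at 0.17 and passed (adjusted p = 0.0255 by edgeR). Fen1, the nuclease that trims the flaps of Okazaki fragments (chromosome 19, 10199132 to 10204169, minus strand), was at 39.0, 44.0, and 38.6 CPM in P and 41.7, 37.5, and 37.9 CPM in AxR libraries. The libraries overlapped, and the log2 fold change was -0.06 (SE 0.0732, adjusted p = 0.523 by edgeR). Of the exon bases of Fen1, 78.8% lie opposite those of Gm10143, which held 196 estimated counts in all against 3908 for Fen1.

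Of the 5 nucleotide supply genes, Dut, Tyms, and Rrm1 rose, and Rrm2 and Tk1 did not pass the test. Dut, the dUTPase that keeps uracil out of DNA (chromosome 2, 125247190 to 125258608, plus strand), was at 44.2, 48.9, and 45.5 CPM in P and 77.4, 61.2, and 63.7 CPM in AxR libraries. The lines did not overlap, with AxR replicate 1 highest, and the log2 fold change was 0.54 (SE 0.0829, adjusted p = 5.06e-05 by edgeR). Tyms, the thymidylate synthase, and Rrm1, the large subunit of ribonucleotide reductase, had log2 fold changes of 0.37 and 0.29 (adjusted p = 0.00158 and 0.0016 by edgeR). Rrm2, the small subunit of the same enzyme (chromosome 12, 24708241 to 24714146, plus strand), was at 73.2, 89.0, and 75.7 CPM in P and 76.7, 59.8, and 51.5 CPM in AxR libraries. AxR replicate 1 lay among the P libraries and the other 2 AxR libraries below them. The log2 fold change of Rrm2 was -0.34 (SE 0.159, adjusted p = 0.107 by edgeR) and did not pass, while without AxR replicate 1 it was -0.51 (adjusted p = 0.000358 by edgeR). With library size only its adjusted p was 0.0406. Tk1, the thymidine salvage kinase, had a log2 fold change of 0.14 with overlapping libraries, and passed only without P replicate 2 (0.25, adjusted p = 0.00289 by edgeR).

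In the G1/S regulators, members of the same family went opposite ways. Of the 11 genes, 3 were higher and 4 lower in AxR cells, and the other 4 did not pass. These are 27.3% and 36.4% of the group, near the 32.8% and 30.8% of all tested genes. Ccnd1, cyclin D1 (chromosome 7, 144929931 to 144939925, minus strand), was at 1176, 1172, and 1154 CPM in P and 874, 812, and 742 CPM in AxR libraries. All AxR libraries were below all P libraries, AxR replicate 3 being lowest. Ccnd1 had a log2 fold change of -0.53 (SE 0.0554, adjusted p = 8.01e-07 by edgeR). Ccnd2, cyclin D2, had -0.32 (adjusted p = 2.58e-05 by edgeR), from 456 ± 8.84 to 366 ± 13.5 CPM, and Ccnd3, cyclin D3, had 0.39 (adjusted p = 0.0003 by edgeR), from 27.8 ± 1.27 to 36.4 ± 2.38 CPM (SD, n = 3 each). On the scale per kilobase of exon, the 3 D cyclins summed to 300 ± 2.68 CPM per kb in P and 215 ± 12.6 CPM per kb in AxR cells (SD, n = 3). Ccnd1 made up 82.8% of that sum in P and 79.9% in AxR cells, while Ccnd3 made up 1.06% and 1.93%. The summed level was lower in every AxR library than in every P library, with Ccnd3 included.

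The kinase partners of the D cyclins were also split. Cdk6 (chromosome 5, 3341485 to 3531008, plus strand) was at 503, 464, and 488 CPM in P and 359, 353, and 313 CPM in AxR libraries. There was no overlap, and the log2 fold change was -0.51 (SE 0.0566, adjusted p = 1.55e-06 by edgeR). Cdk4 (chromosome 10, 127063534 to 127067920, plus strand) was at 338, 349, and 325 CPM in P and 402, 412, and 400 CPM in AxR libraries. There was again no overlap, now with AxR above P, and the log2 fold change was 0.26 (SE 0.0461, adjusted p = 0.000143 by edgeR). The median log2 fold change was 0.25 on chromosome 10 and -0.16 on chromosome 5 over tested genes, so Cdk4 sat near its chromosome's median and Cdk6 below its own. Cdk4 overlaps Tspan31 on the opposite strand over 19.7% of its exon bases. Summed per kilobase of exon, the 2 kinases were at 138 ± 3.09 CPM per kb in P and 149 ± 3.38 CPM per kb in AxR cells (SD, n = 3), and the share of Cdk4 went from 74.96 ± 1.27% to 83.6 ± 0.909%.

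The activator E2F genes, which turn on S phase genes, showed a like split. E2f3 (chromosome 13, 29906575 to 29986063, minus strand) was at 69.2, 73.1, and 74.6 CPM in P and 41.5, 41.9, and 42.0 CPM in AxR libraries. The AxR libraries lay close to each other and far below P. E2f3 had the lowest log2 fold change of the 47 genes, -0.79 (SE 0.0576, adjusted p = 1.56e-08 by edgeR). E2f2 (chromosome 4, 136172394 to 136196057, plus strand) was at 5.47, 5.72, and 5.74 CPM in P and 9.46, 8.86, and 7.40 CPM in AxR libraries. Its libraries did not overlap, and the log2 fold change was 0.60 (SE 0.13, adjusted p = 0.000886 by edgeR). E2f1 (chromosome 2, 154559407 to 154569892, minus strand) was at 21.3, 21.3, and 20.3 CPM in P and 25.4, 23.0, and 19.5 CPM in AxR libraries, which overlapped. Its log2 fold change was 0.11 (SE 0.0919, adjusted p = 0.320 by edgeR), and it passed only without AxR replicate 3 (0.21, adjusted p = 0.0362 by edgeR). Per kilobase of exon, E2f3 made up 63.0 ± 1.24% of the summed level of the 3 genes in P and 46.4 ± 3.43% in AxR cells, and the sum itself was 21.1 ± 0.440 and 16.6 ± 1.11 CPM per kb (SD, n = 3 each). The cyclin E genes Ccne1 and Ccne2 had log2 fold changes of -0.32 and -0.35 (adjusted p = 0.125 and 0.118 by edgeR), and their kinase partner Cdk2 had 0.088. Ccne1 was low, at 3.69 ± 0.409 CPM in P and 2.96 ± 0.184 CPM in AxR cells (SD, n = 3), with no overlap. Ccne2, 17.4% of whose exon bases lie opposite Ints8, overlapped between the lines, and passed without P replicate 2, without AxR replicate 1 and without a low-count filter.

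**Figure D3:**
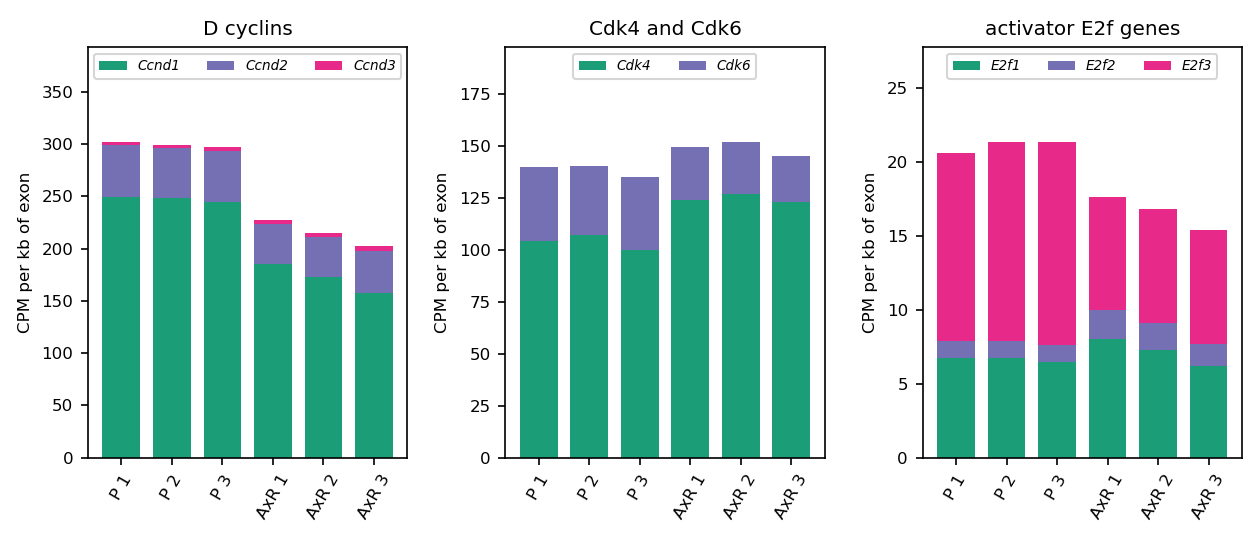
Level per kilobase of exon (CPM per kb, vertical axes from 0) of the D cyclins, of Cdk4 and Cdk6, and of the activator E2F genes in each of the 6 libraries, stacked by gene. The D cyclin and E2F stacks are lower in all 3 AxR libraries than in all 3 P libraries, and the Cdk4 part of the middle stacks is larger.

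The libraries of one line differed from each other in these genes. AxR replicate 1 was the highest AxR library in 38 of the 47 genes, a position it held in 34.4% of all tested genes, and AxR replicate 3 was the lowest in 36, against 38.5% of all tested genes. Relative to the mean of the P libraries, the median of the 47 genes on the log2 scale was 0.25, 0.12, and 0.016 in AxR replicates 1 to 3, and -0.052, 0.078, and -0.019 in P replicates 1 to 3. The same medians over all tested genes stayed between -0.0041 and 0.024. The exceptions to the order, in which another AxR library was highest, were Orc6, Cdt1, Cdc7, Gins2, Prim1, Ccnd2, Ccnd3, Cdk4, and E2f3, so 4 of the 9 were G1/S regulators. In P cells, replicate 2 was highest in 31 of the 47 genes, against 40.2% of all tested genes. The ribosomal RNA gene CT010467.1, the most abundant gene in the table, took 4.75%, 3.49%, and 2.52% of the counts in AxR replicates 1 to 3 and 2.99%, 3.04%, and 4.53% in P replicates 1 to 3. Mitochondrial genes took 2.15%, 1.87%, and 1.63% in AxR and between 1.25% and 1.31% in P libraries. The part of either in the order of the libraries was not tested. Without AxR replicate 1 the median log2 fold change of the 47 genes was 0.038 in place of 0.11, with 18 genes higher and 8 lower, Gins3, Rrm2, and Ccne2 being added to the lower ones and Gmnn and Rfc3 lost from the higher ones.

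**Figure D4:**
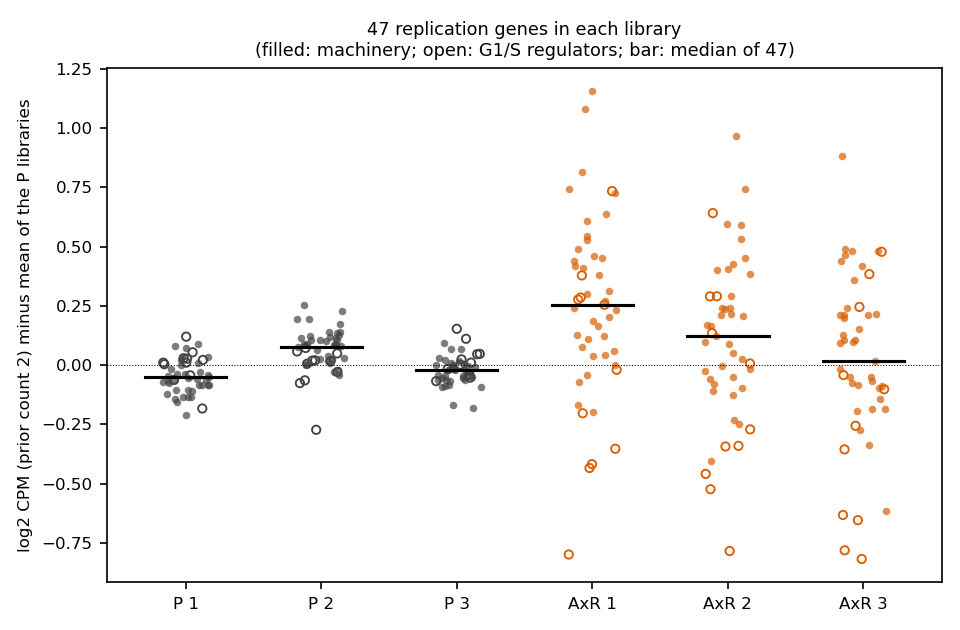
Difference in log2 CPM from the mean of the P libraries (vertical axis) for each of the 47 genes in each library, with filled points for the replication machinery, open points for G1/S regulators and a bar at the median of the 47. The bar stands at 0.25 in AxR replicate 1 and at 0.016 in AxR replicate 3, with the P libraries between -0.052 and 0.078.

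The 47 genes lie on 15 chromosomes, 10 of them on chromosome 5. Measured against the median of the tested genes on the same chromosome, 35 of the 47 were above and 12 below, and the median difference was 0.20 on the log2 scale. By level, Ccnd1 was the most abundant of the 47 per kilobase of exon in both lines, at 248 CPM per kb in P and 172 in AxR cells, followed by Cdk4. Pcna went from the fourth to the third place and Cdk6 from rank 5 to rank 13. E2f2 was lowest in P at 1.16 CPM per kb and Ccne1 in AxR cells at 1.11 CPM per kb.

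A wider list of 86 other genes of replication and the G1/S switch, of which 82 were tested, showed 37 higher and 24 lower, or 45.1% and 29.3% of those tested, around a median of 0.099 on the log2 scale. Of all tested genes 32.8% were higher and 30.8% lower, so the lower share was close to that background. The highest values were those of Dscc1, a subunit of an alternative clamp loader, Recql4, a helicase needed at origins, Fbxo5, an inhibitor of the anaphase-promoting complex, and Ccna2, cyclin A2, the S phase cyclin. Their log2 fold changes were 1.70, 1.27, 1.17, and 1.05, each with an adjusted p under 0.05 by edgeR. Dscc1 was low, at 1.93 ± 0.528 CPM in P and 6.25 ± 0.199 CPM in AxR cells (SD, n = 3), without overlap. Ccna2 was at 176, 172, and 195 CPM in P and 404, 368, and 351 CPM in AxR libraries, without overlap. The lowest were Myc, the growth-promoting transcription factor, Donson, a replication fork factor, Pold4, a small polymerase subunit, and E2f4, an E2F that acts mostly in repression, with -0.89, -0.86, -0.84, and -0.60. Myc was at 919, 982, and 887 CPM in P and 425, 480, and 597 CPM in AxR libraries, again without overlap. By role, 6 of 10 single-strand binding, nuclease, and topoisomerase genes rose and 2 fell. Among the 10 other genes of nucleotide metabolism, 7 fell and 3 did not pass. Among other polymerase and clamp loader subunits 7 of 12 rose and 2 fell.

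The inhibitors of cyclin-dependent kinases that act on this switch were measured beside it. Cdkn2c, which encodes p18 and binds CDK4 and CDK6, was at 63.4, 64.1, and 58.2 CPM in P and 106, 104, and 91.3 CPM in AxR libraries, with no overlap and a log2 fold change of 0.70 (SE 0.0659, adjusted p = 2.70e-07 by edgeR). Cdkn2d, which encodes p19, had 0.56 (adjusted p = 0.00016 by edgeR). Cdkn1a (p21) and Cdkn1b (p27) did not pass, with log2 fold changes of -0.002 and 0.15. Cdkn2a and Cdkn2b, like Mycn, had 0 counts in every library, a count that allows at most 0.171 to 0.196 CPM depending on the library, counting error only, and Cdkn1c had 1 count in each P and none in any AxR library.

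As a neighbouring set, 26 genes of mitosis were read in the same fit. Of these, 23 were higher (88.5%) and 1 was lower (3.85%) in AxR cells, around a median of 0.45 on the log2 scale. Of all tested genes, 32.8% were higher and 30.8% lower. Of the 47 replication genes, 20 were higher (42.6%) and 5 lower (10.6%), around a median of 0.11. The difference between the lists was not tested. Mki67, the proliferation marker, rose from 507 ± 37.8 to 878 ± 68.6 CPM (log2 fold change 0.79, adjusted p = 8.54e-08 by edgeR), and Top2a, which untangles replicated DNA, from 649 ± 41.9 to 933 ± 69.3 CPM (0.52, adjusted p = 3e-06 by edgeR; SD, n = 3 each). The mitosis median, relative to the P mean, was 0.58, 0.44, and 0.36 in AxR replicates 1 to 3, so replicate 1 was highest here as well.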

How the data were processed

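RNA was taken 48 h after plating. Per the labels and the study's methods, the authors checked reads with FastQC 0.11.5, aligned them with STAR 2.6.0a to GRCm38 and deposited RSEM 1.3.1 estimated counts per gene, here rounded to whole numbers. Whether strand was used in counting is not given in the sources used here. Gene names and coordinates came from GENCODE M21, which held 53360 of 53465 identifiers. Genes were filtered with edgeR's filterByExpr, leaving 13550 with 99.89% of the counts, scaled by upper quartile and tested with edgeR 4.0.16 (quasi-likelihood, R 4.3.3), 3 AxR against 3 P libraries without a block, with Benjamini-Hochberg adjustment over all tested genes and a threshold of 0.05. Standard errors of the log2 fold changes were back-computed from the F statistic of the edgeR test. The fit was tested on simulated data. DESeq2 1.42.0 and limma 3.58.1 (voom) served as alternatives. With 15495260 to 17294525 counts per library, 3 counts correspond to 0.171 to 0.196 CPM, counting error only.

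All 47 members are named, with values per library for 20 of them. These 20 include the genes with the highest and lowest log2 fold change of each role. They also include the members that passed with the largest changes, so the choice rested in part on the measured change. Of the wider replication list, the 4 highest, the 4 lowest and the inhibitors are named, and of mitosis Mki67 and Top2a. The members, lists and rules were chosen with earlier results of these data known.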

Additional observations from a re-analysis of the deposited data

How the results depend on the processing

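Of 25 members that passed, 23 did so under every alternative run, Gmnn and Rfc3 being the exceptions given above, and 8 others gained a call under some setting. A further limit of 1 on the size of the log2 change left 1083 genes higher and 640 lower of all tested, 4 higher and 0 lower of the other replication genes, and 0 members higher and 0 lower. For the members, and for lower values in the other replication genes, the count was also 0 at an unadjusted p under 0.05 by edgeR, DESeq2 and limma-voom. In the main fit these counts are 0 at any p, since no such change reached the limit. The largest were 0.97 for Lig1 among members and -0.89 for Myc among lower values of the other genes. Leaving out single libraries gave 18 to 23 members higher and 5 to 8 lower, with 8 without AxR replicate 1, and a median from 0.038 without AxR replicate 1 to 0.17 without AxR replicate 3. Deviations from the line mean were hardly correlated between same-numbered libraries (-0.021, -0.006, and -0.022). With 3 libraries per line this cannot settle whether same-numbered libraries were handled together, and nothing states that they were. With the replicate block there were 20 members higher and 5 lower, 38 and 23 of the other replication genes, 4304 and 4023 of all tested genes, and a median of 0.11. Some of the members that did not pass changed sign when 1 library was left out, and the others kept their sign. For those that changed, the lowest and highest values were -0.11 and 0.13 for Mcm3, -0.064 and 0.044 for Mcm7, and -0.0088 and 0.11 for Cdc7. They were -0.024 and 0.13 for Cdc45, -0.19 and 0.041 for Gins1, -0.065 and 0.13 for Gins4, and -0.10 and 0.12 for Rfc4. The remaining ones were -0.042 and 0.072 for Prim1, -0.10 and 0.0092 for Fen1, and -0.016 and 0.15 for Cdk2. With library size only, Prim1 was at -0.0039. The cause of these changes was not tested.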
